A study of Mus musculus with 20 samples.

Results

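The genes described here are Erdr1, Foxn1, Cd3d, Crb1, C230066G23Rik, 4930526A20Rik and Ermard. They were chosen because they lie on neither chromosome 7, which holds Apoe, nor chromosome 6, and because their hippocampal RNA differed between hAPOE4 and hAPOE3 mice in the same direction in males and in females. The values that chose them are therefore given as a description, with no test. They are 7 of the 33119 genes of the count table, and all 7 were among the 21724 genes that passed a filter on low counts. Foxn1 and C230066G23Rik had at most 4 and 9 counts in any hAPOE4 mouse and passed it only through the hAPOE3 mice. Nothing is therefore read from the calls of these genes. Erdr1, Foxn1, Cd3d, C230066G23Rik, 4930526A20Rik and Ermard were lower in hAPOE4 mice of both sexes, and Crb1 was higher.

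Hippocampal RNA of 20 mice was sequenced, in groups of 5: males carrying hAPOE3 or hAPOE4, and females carrying hAPOE3 or hAPOE4. All mice were homozygous targeted replacement animals of a C57BL/6 strain, aged 16 months, with human APOE3 or human APOE4 in place of the mouse gene. No group stands for a wild type, and the labels name no treatment. The hippocampi were dissected after perfusion with saline, and polyA-selected RNA was read as paired ends. The labels name the strain but no subline, and any difference between the 2 genotypes' lines other than the APOE allele cannot be told apart from the allele. Each library is 1 mouse. In bulk tissue, fewer cells of a type and less RNA per cell cannot be told apart.

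Between 35778879 and 52520279 counts were assigned per mouse. Levels are given as CPM, the estimated count of a gene scaled to the TMM-adjusted library size as edgeR's cpm does, and are compared only within a gene. Neuronal markers were high in every library: the summed CPM of 6 neuron genes ran from 3632 to 5569 over the 20 mice, and that of 10 genes of hippocampal neurons from 589.7 to 906.8. Oocyte genes stood out in 4 of the 5 hAPOE4 male libraries, in which the summed CPM of the listed oocyte genes was 171, 97.5, 119 and 91.1 (hAPOE4 males 2 to 5), against 5.60 in hAPOE4 male 1 and 5.40 to 8.18 in the other 15 mice. The choroid plexus genes varied within every group, from 79.3 to 6588 summed CPM over all mice.

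The 7 genes have unlike roles. Erdr1 was named as an erythroid differentiation regulator and belongs to the pseudoautosomal end of the mouse sex chromosomes, the stretch that X and Y share and exchange in meiosis. Foxn1 is the forkhead transcription factor of thymic epithelium and hair follicles, whose loss gives the hairless, athymic nude mouse, and Cd3d encodes the delta chain of the CD3 complex through which the T cell receptor signals. Crb1 encodes a Crumbs polarity protein of retinal glia and photoreceptors, and a mutant form of it, rd8, is known from C57BL/6N mice. Ermard encodes a membrane protein of the endoplasmic reticulum that has been linked to periventricular nodular heterotopia in people. C230066G23Rik is a noncoding transcript inside an intron of Lrrc8c, and 4930526A20Rik is a transcribed processed pseudogene, a copy of an mRNA that was written back into the genome.

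Positions are given on GRCm38. Foxn1 lies at chr11:78357577-78386558 on the minus strand, Cd3d at chr9:44981786-44987339 on the plus strand and Crb1 at chr1:139197056-139377100 on the minus strand. C230066G23Rik lies at chr5:105580440-105581772 on the plus strand, on the same strand as Lrrc8c, and shares 0 exonic bases with it. Both remaining placed genes are on chromosome 17, 4930526A20Rik at chr17:28075050-28076677 (minus strand, inside Tcp11 and sharing 0 exonic bases with it) and Ermard at chr17:15041208-15090044 (plus strand). Of the 7247 exonic bases of Ermard, 193 also lie in exons of Tcte3 and 97 in exons of Gm3448, both on the other strand. The symbol Erdr1 was not found in the GENCODE M21 annotation, and RefSeq places a gene of that name at chrX:170010526-170018797, where GENCODE has Gm21887. Gm21887 has a line of its own in the count table, so which copy the counts named Erdr1 stand for is uncertain.

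Stretches of sequence that 3 of the genes share with another gene are shown, because reads from such stretches can be split between copies and the counts of these genes are uncertain for that reason. Of the 31-base words of the annotated 4930526A20Rik transcripts, 51.8% also occur in Tsen34, a subunit gene of the tRNA splicing endonuclease on chromosome 7 (chr7:3692863-3701024, plus strand). The best local alignment of the pair covered 1285 columns with 98.5% identity. The first 90 bases of the Tsen34 coding sequence (chr7:3694602-3694691, exon 1 of 4 of the transcript used) and their match in the pseudogene (chr17:28076266-28076355, minus strand) differ at 1 base, printed as a capital:
4930526A20Rik: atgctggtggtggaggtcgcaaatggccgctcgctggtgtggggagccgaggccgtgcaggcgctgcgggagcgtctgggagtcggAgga
Tsen34: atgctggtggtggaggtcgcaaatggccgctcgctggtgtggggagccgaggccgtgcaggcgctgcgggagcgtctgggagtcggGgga

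For Ermard, 33.3% of its 31-base words also occur in 9030025P20Rik, a second protein-coding gene of chromosome 17 (chr17:14978468-14991572, plus strand) that has no line in the count table. Their best alignment covered 1667 columns with 99.3% identity. The first 90 coding bases, which span exons 1 and 2 of each transcript (between chr17:15041641 and 15042331 for Ermard, and between chr17:14978894 and 14979584 for 9030025P20Rik), are identical, so no capital appears:
Ermard: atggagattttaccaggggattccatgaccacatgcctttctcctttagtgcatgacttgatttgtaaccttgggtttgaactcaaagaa
9030025P20Rik: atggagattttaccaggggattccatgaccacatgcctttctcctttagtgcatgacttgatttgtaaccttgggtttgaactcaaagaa

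GENCODE M21 holds a pair of genes with this kind of Erdr1 sequence, Gm21887 on X (chrX:170009659-170019281) and Gm47283 on Y (chrY:90784738-90816464), and only the first is a name in the count table. The longest alignment of a Gm47283 transcript with Gm21887 covered 529 columns with 100% identity, and 62.0% of the 31-base words of Gm21887 are shared with Gm47283. The first 90 coding bases, over exons 1 and 2, are the same in both:
Gm21887: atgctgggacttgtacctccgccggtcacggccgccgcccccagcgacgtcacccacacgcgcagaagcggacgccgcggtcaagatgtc
Gm47283: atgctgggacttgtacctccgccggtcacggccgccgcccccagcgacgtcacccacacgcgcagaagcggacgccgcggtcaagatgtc

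Cd3d, Crb1, C230066G23Rik and Foxn1 shared few words with other genes (3.10%, 0.936%, 0.484% and 0.345%).

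A gene was called where its adjusted p was under 0.05 (edgeR quasi-likelihood test, Benjamini-Hochberg). Over all tested genes, 0.621% were called in males and 0.667% in females, and 0.212% were called in both sexes in the same direction; the rule used these contrasts, so nothing is read from the 7 of 7. Likewise, 7 of 7 did not overlap between genotypes in males, where 1.44% of tested genes did not, and in females, where 3.27% did not, beside 0.414% that overlapped in neither sex. Of the 46 genes called in both sexes in the same direction, 12 lay on chromosome 7 and 8 on chromosome 6, which the rule leaves out. The other 26, 3 of them at no known place, include the 7 genes, and of those 26 19 were lower and 7 higher in hAPOE4 mice. The members nearest to the threshold were C230066G23Rik and Foxn1, with a larger adjusted p of 0.0490 and 0.0229, and the genes just outside it were Gm26850 on chromosome 3 and Gm1840 on chromosome 8, with 0.0541 and 0.0635 (edgeR quasi-likelihood test).

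Erdr1 showed the widest gap of the 7 genes between genotypes. In hAPOE3 males 1 to 5 its level was 94.4, 51.1, 118, 128 and 157.6 CPM, and in hAPOE4 males 1 to 5 it was 2.65, 3.56, 3.14, 3.91 and 2.12 CPM. In hAPOE3 females 1 to 5 it was 58.2, 70.1, 54.2, 70.0 and 84.0 CPM, against 11.0, 4.76, 1.80, 1.59 and 3.30 CPM in hAPOE4 females 1 to 5. Every hAPOE3 mouse lay above every hAPOE4 mouse of its sex, the nearest pair being hAPOE3 female 3 and hAPOE4 female 1. The group means fell from 110 ± 39.8 to 3.07 ± 0.712 CPM in males and from 67.3 ± 11.7 to 4.49 ± 3.85 CPM in females (SD, n = 5 each), which is 35.7-fold and 15.0-fold. Without hAPOE4 female 1, the highest of its group, the ratio in females was 23.5-fold and the fitted log2 fold change -4.55 ± 0.35 (SE). The fitted log2 fold change of hAPOE4 against hAPOE3 was -5.16 ± 0.44 in males and -3.90 ± 0.41 in females (SE). Even the lowest hAPOE4 mouse, female 4, gave 68 counts, so the line named Erdr1 held counts in all 20 mice. The highest hAPOE4 female for Erdr1, female 1 with 520 counts, was also the highest of its group for Gm21887, with 282 counts. Whether reads of Gm21887 entered the counts named Erdr1 was not tested. Adding the counts of Gm21887 to those of Erdr1 gave log2 fold changes of -4.78 and -3.36.

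**Figure D1:**
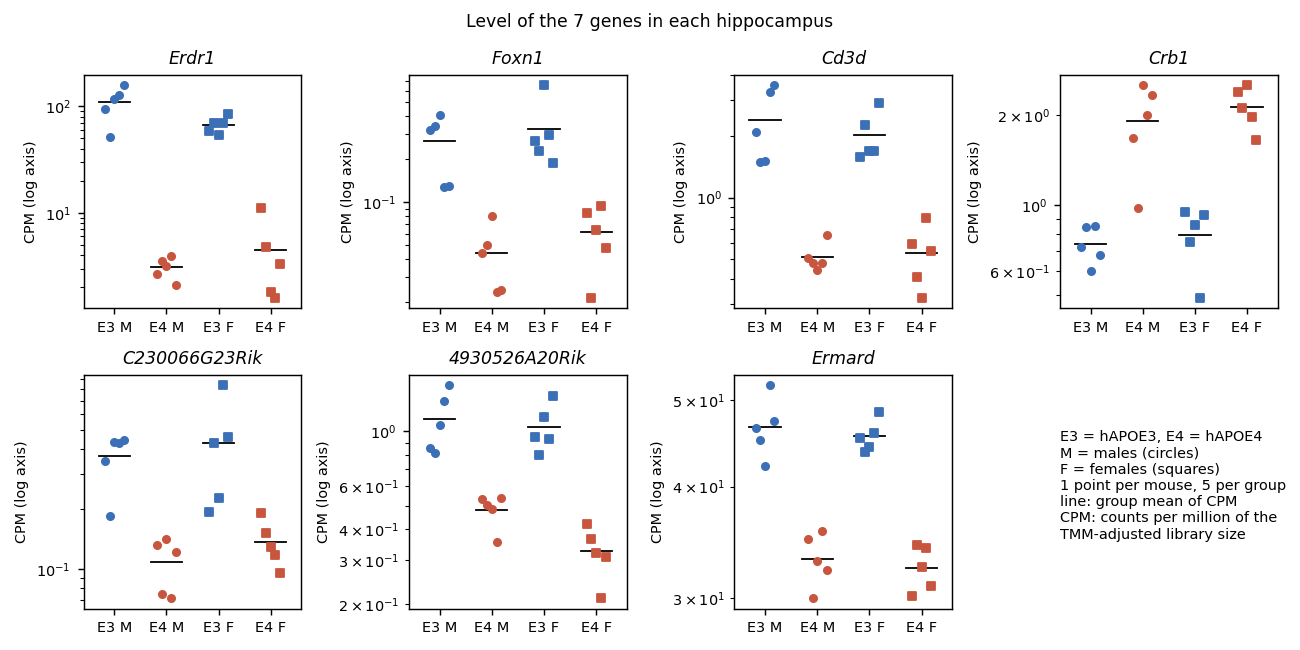
CPM of each of the 7 genes on a log axis in each mouse (circles males, squares females; blue hAPOE3, red hAPOE4; lines are group means of 5 mice). Within each sex no hAPOE4 point overlaps an hAPOE3 point in any of the panels; for C230066G23Rik in females the groups come as close as 0.190 and 0.194 CPM.

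Foxn1 was at the limit of detection. The hAPOE3 males had 12, 13, 17, 6 and 7 counts and the hAPOE4 males 2, 2, 4, 1 and 1 (mice 1 to 5 in each). The hAPOE3 females had 11, 9, 23, 12 and 9 counts and the hAPOE4 females 4, 1, 3, 4 and 2. No hAPOE4 mouse exceeded 4 counts, and no hAPOE3 mouse was below 6. In CPM the means were 0.266 ± 0.129 in hAPOE3 males and 0.0446 ± 0.0232 in hAPOE4 males, and 0.327 ± 0.189 in hAPOE3 females and 0.0624 ± 0.0290 in hAPOE4 females (SD, n = 5). The log2 fold change was -2.45 ± 0.51 in males and -2.32 ± 0.48 in females (SE). At this depth a single count more or less moves an hAPOE4 value by a large share of itself, so the size of the difference is imprecise. Its call was lost in 4 of the 20 fits that each left out 1 mouse in males, and in 5 of 20 in females.

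The other genes of the thymic epithelium list did not move with Foxn1. Of 11 listed genes, 8 were tested, and Foxn1, whose call the rule fixed, was the only one called in either sex. The median log2 fold change of the list was 0.10 in males and -0.05 in females, beside medians of 0.00 over all tested genes. Without Foxn1 the summed level of the list was 16.4 to 19.3 CPM in hAPOE3 males and 16.9 to 20.2 CPM in hAPOE4 males, and 17.7 to 21.3 CPM in hAPOE3 females and 17.6 to 21.9 CPM in hAPOE4 females. Of 8 hair and epidermis genes, 4 were tested and 0 were called in either genotype comparison, and 1 of the 4 had a positive log2 fold change in each sex.

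Cd3d was 4.67-fold lower in hAPOE4 males and 3.79-fold lower in hAPOE4 females, as ratios of mean CPM. Its levels were 2.09, 1.50, 1.51, 3.29 and 3.56 CPM in hAPOE3 males 1 to 5 and 0.507, 0.476, 0.443, 0.477 and 0.658 CPM in hAPOE4 males 1 to 5. In females they were 1.58, 2.26, 1.68, 1.69 and 2.92 CPM (hAPOE3) and 0.592, 0.409, 0.322, 0.797 and 0.550 CPM (hAPOE4). The groups did not overlap in either sex; hAPOE3 males 4 and 5 and hAPOE3 female 5 were the highest, and the hAPOE4 males were close together. The log2 fold change was -2.22 ± 0.28 in males and -1.92 ± 0.28 in females (SE).

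The genes of the other CD3 and T cell receptor chains overlapped between the genotypes in both sexes, where Cd3d did not. Cd3e, Cd3g and Cd247, which encode the epsilon, gamma and zeta chains of the same complex, were too low to be tested, with 0 to 16, 1 to 13 and 0 to 25 counts over the 20 mice, where Cd3d had 15 to 193. Cd3e had 1, 2, 4, 7 and 5 counts in hAPOE3 males and 5, 2, 16, 5 and 3 in hAPOE4 males, and the genotypes overlapped. Trac, the constant segment of the receptor alpha chain, had 12 to 102 counts and log2 fold changes of -0.33 ± 0.37 in males and -0.22 ± 0.39 in females (SE), with adjusted p-values of 0.778 and 0.905 (edgeR quasi-likelihood test). Trbc2, the constant segment of a beta chain, gave -2.16 ± 0.72 and -0.26 ± 0.74 (adjusted p 0.308 and 0.950, edgeR). The male value of Trbc2 rested on hAPOE3 male 4, with 476 counts against 20 to 59 in the other 4 hAPOE3 males, and was -0.59 ± 0.53 without it (adjusted p 0.940, edgeR). The ratio of mean CPM, hAPOE4 to hAPOE3, was above 1 for Cd3e (1.62 in males, 1.37 in females). In both sexes it was below 1 for Cd3g (0.649 and 0.903), Cd247 (0.806 and 0.604) and Trac (0.802 and 0.858). The same held for Trbc2 (0.223 and 0.831) and for Trbc1 (0.823 and 0.873), which was too low to be tested. Of 19 T cell genes, 11 were tested, and Cd3d, whose call the rule fixed, was the only one called. With Cd3d counted, the median log2 fold change was -0.25 in males and -0.22 in females, beside medians of 0.00 over all tested genes. Of the 11, 8 were negative in males and 7 in females. Without Cd3d the summed T cell level was 11.3 to 26.1 CPM in hAPOE3 males and 11.5 to 14.8 CPM in hAPOE4 males, and 11.1 to 14.7 CPM in hAPOE3 females and 11.1 to 13.3 CPM in hAPOE4 females, so the genotypes overlapped. Blood genes (hemoglobins and Alas2) had negative log2 fold changes for 5 of 5 in each sex (medians -1.20 and -1.88), none of them called, with summed levels that overlapped, 18.6 to 197 CPM in hAPOE3 and 15.9 to 65.0 CPM in hAPOE4 males, and 15.1 to 303 CPM in hAPOE3 and 9.17 to 31.9 CPM in hAPOE4 females. Their part in the lower Cd3d was not tested. Natural killer cell genes were near 0, with a summed level of at most 0.505 CPM in any mouse and 0 of 6 genes tested.

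**Figure D2:**
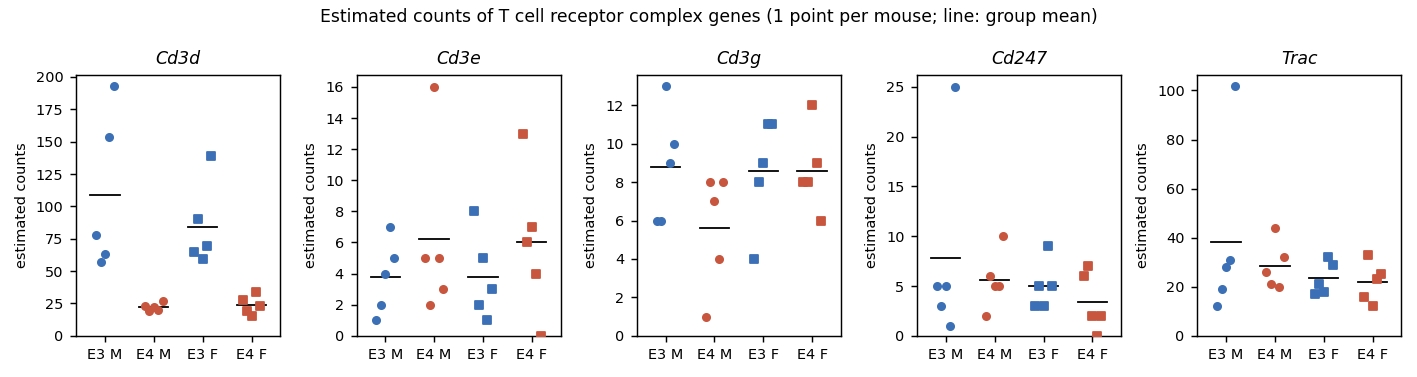
Estimated counts of Cd3d, Cd3e, Cd3g, Cd247 and Trac in each mouse, on linear axes that start at 0 (circles males, squares females; blue hAPOE3, red hAPOE4; lines are group means of 5 mice). Cd3d separates the genotypes, at 57 to 193 counts in hAPOE3 and 15 to 34 counts in hAPOE4 mice, and the other genes overlap between them.

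Crb1 was the member of the 7 that was higher in hAPOE4 mice. In males its level was 0.723, 0.843, 0.601, 0.854 and 0.683 CPM (hAPOE3 males 1 to 5) and 1.68, 0.977, 2.51, 2.002 and 2.34 CPM (hAPOE4 males 1 to 5). In females it was 0.946, 0.755, 0.857, 0.490 and 0.924 CPM (hAPOE3) and 2.39, 2.11, 2.51, 1.97 and 1.65 CPM (hAPOE4). Only hAPOE4 male 2 came near the hAPOE3 range, and no hAPOE4 mouse fell inside it in CPM. Mean CPM was 2.57-fold higher in males and 2.68-fold higher in females, with log2 fold changes of 1.36 ± 0.23 and 1.42 ± 0.23 (SE). Among 16 tested genes of the Crumbs and Par polarity complexes, Crb1, whose call the rule fixed, was the only one called in either sex. The list median, with Crb1 counted, was 0.17 in males and 0.14 in females, with 14 and 12 of 16 positive. Medians over all tested genes were 0.00. Without Crb1 the summed level overlapped, at 475 to 538 and 514 to 554 CPM in hAPOE3 and hAPOE4 males. In females it was 477 to 553 CPM (hAPOE3) and 523 to 535 CPM (hAPOE4). Its paralog Crb2 gave 0.14 ± 0.23 and 0.42 ± 0.23 (adjusted p 0.862 and 0.573, edgeR). The factors by which the deposited table normalized Crb1 varied more than those of the other 6 genes, from 0.626 to 1.19 of the mouse's median factor, and with the deposited normalized counts the log2 ratio of group means was 1.25 in males and 1.38 in females. In those deposited values the male groups overlapped, since hAPOE4 male 2 stood at 36.9 within the 24.4 to 45.9 of the hAPOE3 males.

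Crb1 also belongs to a list of 8 genes put together as candidates that differ between C57BL/6 sublines. That list was written with earlier results of these data in view, and 2 of its 8 genes were called in each sex, Crb1 higher and Wdfy1 lower in hAPOE4 mice. Over all tested genes 0.621% were called in males and 0.667% in females. The rule fixed the call of Crb1, and Wdfy1 meets the same rule, so nothing is read from this count. Wdfy1, which encodes an adaptor of Toll-like receptor signalling, was 50.3 to 58.2 CPM in all hAPOE3 mice and 22.1 to 27.0 CPM in all hAPOE4 mice, with log2 fold changes of -1.12 ± 0.07 in males and -1.19 ± 0.07 in females. In the deposited normalized counts the gap of Wdfy1 was smaller. Its means there were 1915 (hAPOE3) and 1192 (hAPOE4) in males, and 2011 and 1285 in females. Nnt, the nicotinamide nucleotide transhydrogenase whose deletion marks C57BL/6J, was 18.6 to 27.3 CPM over all 20 mice and gave -0.14 ± 0.09 and 0.05 ± 0.09 (adjusted p 0.637 and 0.915, edgeR). Gabra2, a GABA-A receptor subunit gene of low expression in C57BL/6J, gave -0.01 ± 0.18 and -0.22 ± 0.18 and was called in neither sex. The bearing of subline on the 7 genes was not tested, since no genotype of any mouse was read here.

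C230066G23Rik was low, at 7 to 34 counts in hAPOE3 and 3 to 9 counts in hAPOE4 mice. The hAPOE3 males had 0.348, 0.184, 0.433, 0.427 and 0.443 CPM and the hAPOE4 males 0.132, 0.0752, 0.141, 0.0715 and 0.122 CPM (mice 1 to 5). The hAPOE3 females had 0.194, 0.428, 0.228, 0.833 and 0.462 CPM and the hAPOE4 females 0.190, 0.151, 0.129, 0.117 and 0.0956 CPM. The groups were separate in both sexes, but in females hAPOE3 female 1 and hAPOE4 female 1 nearly touched. Its call was lost in 8 of the 20 fits without 1 mouse in males and in 16 of 20 in females. The log2 fold change was -1.73 ± 0.39 in males and -1.63 ± 0.38 in females (SE). Lrrc8c, the volume-regulated anion channel subunit gene whose intron holds this transcript, gave 0.00 ± 0.18 and 0.10 ± 0.18 (adjusted p 0.997 and 0.907, edgeR), so the host gene was not called.

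4930526A20Rik was 2.32-fold lower in hAPOE4 males and 3.19-fold lower in hAPOE4 females, as ratios of mean CPM. Its level was 0.857, 0.817, 1.06, 1.32 and 1.53 CPM in hAPOE3 males 1 to 5 and 0.530, 0.501, 0.483, 0.357 and 0.536 CPM in hAPOE4 males 1 to 5. In females it was 0.946, 0.805, 1.14, 0.931 and 1.39 CPM (hAPOE3) and 0.423, 0.366, 0.322, 0.211 and 0.311 CPM (hAPOE4). No hAPOE4 value reached the lowest hAPOE3 value of its sex. The log2 fold change was -1.22 ± 0.22 in males and -1.66 ± 0.23 in females (SE). Tsen34, whose sequence it shares as printed above, was not called and overlapped between the genotypes, with -0.06 ± 0.13 and 0.07 ± 0.13, at 1076 to 2841 counts per mouse where the pseudogene had 9 to 83. Tcp11, the testis gene that spans the pseudogene, gave -0.01 ± 0.63 and 1.32 ± 0.64 and was not called either. Whether reads of Tsen34 entered the counts of 4930526A20Rik was not tested.

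Ermard had the smallest change and the smallest spread of the 7 genes. It was 46.5, 45.1, 42.2, 51.9 and 47.4 CPM in hAPOE3 males 1 to 5 and 35.0, 30.0, 33.0, 35.7 and 32.2 CPM in hAPOE4 males 1 to 5. In females it was 45.3, 43.7, 44.3, 45.9 and 48.5 CPM (hAPOE3) and 30.2, 34.4, 32.6, 34.2 and 30.9 CPM (hAPOE4). All hAPOE3 mice lay between 42.2 and 51.9 CPM and all hAPOE4 mice between 30.0 and 35.7 CPM. The log2 fold change was -0.49 ± 0.07 in males and -0.49 ± 0.07 in females (SE), on 1198 to 2568 counts per mouse. Tcte3, a dynein light chain gene that overlaps the start of Ermard on the other strand, gave -0.65 ± 0.33 in males (adjusted p 0.562) and -1.57 ± 0.34 in females (adjusted p 0.0351, edgeR). The sources used here do not state a stranded library, and without strand the reads of Ermard and Tcte3 in the overlap cannot be told apart. None of 16 endoplasmic reticulum quality control genes was called in either sex (medians 0.11 and 0.11). Among 7 genes of periventricular heterotopia Ermard, whose call the rule fixed, was the only one called (medians 0.18 and 0.10 with Ermard counted). Over all tested genes the medians were 0.00, and 0.621% were called in males and 0.667% in females.

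**Figure D3:**
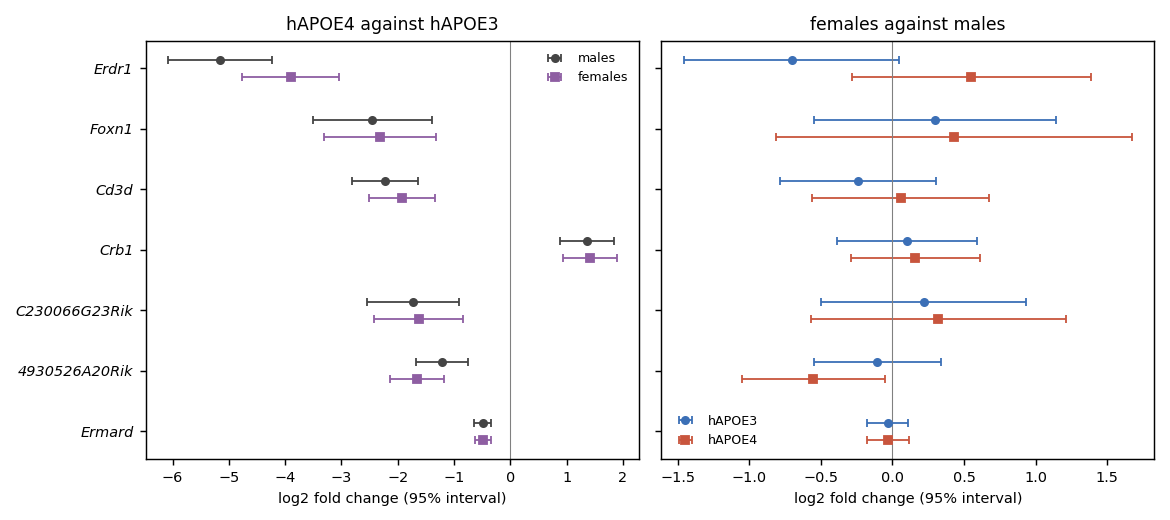
Fitted log2 fold changes with 95% intervals, on the left hAPOE4 against hAPOE3 in males (circles) and females (squares), on the right females against males in hAPOE3 (circles) and hAPOE4 mice (squares). On the left all intervals lie on one side of 0, as the choice of genes fixes, from -5.16 for Erdr1 to 1.42 for Crb1; on the right all but that of 4930526A20Rik in hAPOE4 mice include 0.

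The rule did not use the comparison of females with males, but the same 20 libraries enter both, so the comparisons are not independent of it. In hAPOE3 mice 0 of the 7 genes was called, where 0.0414% of tested genes were, and in hAPOE4 mice 0 of 7, where 0.437% were (edgeR quasi-likelihood test). At an unadjusted p under 0.05 there were 0 of 7 in hAPOE3 mice, where 5.22% of tested genes were, and 1 of 7 in hAPOE4 mice, where 5.80% were. DESeq2 also called 0 of 7 in each genotype. The values of each gene overlapped between the sexes in both genotypes; 0.723% of tested genes did not overlap in hAPOE3 mice, and 0.723% in hAPOE4 mice. The log2 fold change of females against males was -0.70 ± 0.36 for Erdr1 in hAPOE3 mice (95% interval -1.46 to 0.05, adjusted p 0.805, edgeR) and 0.55 ± 0.40 in hAPOE4 mice (-0.28 to 1.38). For 4930526A20Rik it was -0.55 ± 0.24 in hAPOE4 mice (95% interval -1.05 to -0.06, adjusted p 0.743, edgeR), lower in females with an unadjusted p of 0.0311. For Ermard the intervals were narrow, -0.18 to 0.11 in hAPOE3 and -0.18 to 0.12 in hAPOE4 mice. For Foxn1, Cd3d, Crb1 and C230066G23Rik they were wide, the widest being -0.81 to 1.67 for Foxn1 in hAPOE4 mice, so sex differences of that size could not be detected.

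The genotype effects of males and females were also compared with each other, in the interaction of sex and genotype. Of the 7 genes 0 was called, where 0.184% of tested genes were (edgeR), and 1 had an unadjusted p under 0.05, where 2.54% did. DESeq2 called 0 of 7 as well. The largest difference was that of Erdr1, whose fall was smaller in females by 1.26 ± 0.54 (95% interval 0.13 to 2.38, unadjusted p 0.0301, adjusted p 1.00, edgeR), and without hAPOE4 female 1 it was 0.61. The rule asked for the same direction in both sexes and so limits how far these effects could differ.

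Genes next to the 7 were then described, since position was not used by the rule beyond leaving out chromosomes 6 and 7. Within 1 Mb either side lay 213 tested genes. In males 3 of them were called (1.41%) and in females 4 (1.88%), beside 0.621% and 0.667% of all tested genes. Foxn1 with 54, C230066G23Rik with 19 and 4930526A20Rik with 42 tested neighbours had 0 called in either sex.

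The pair called in both sexes lies by Erdr1, at the place RefSeq gives for it, and both are lower in hAPOE4 mice. G530011O06Rik, a noncoding transcript at chrX:169975043-169978917, was 4.15, 5.45, 4.95, 12.1 and 6.13 CPM in hAPOE3 males and 2.47, 2.38, 1.65, 2.26 and 2.27 CPM in hAPOE4 males, and 3.64, 5.46, 4.11, 6.15 and 5.79 CPM in hAPOE3 females and 1.92, 2.05, 1.68, 1.99 and 2.44 CPM in hAPOE4 females. Its log2 fold change was -1.57 ± 0.24 in males and -1.32 ± 0.24 in females (adjusted p 0.000977 and 0.00847, edgeR). Gm15726, an antisense transcript at chrX:169979047-169985232, was 0.553 to 1.02 CPM in hAPOE3 males and 0.141 to 0.310 CPM in hAPOE4 males, and 0.539 to 1.11 CPM in hAPOE3 females and 0.0634 to 0.281 CPM in hAPOE4 females. Its log2 fold change was -1.88 ± 0.33 and -1.58 ± 0.32 (adjusted p 0.00382 and 0.0220, edgeR). Neither gene overlapped between genotypes.

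Mid1, the ubiquitin ligase gene that crosses the pseudoautosomal boundary in C57BL/6 mice (chrX:169685199-170005736), contains both transcripts and gave only -0.23 ± 0.11 and -0.35 ± 0.11 (adjusted p 0.526 and 0.180, edgeR). Gm21887, where RefSeq places Erdr1, gave -0.67 ± 0.72 and -0.61 ± 0.68 and was called in neither sex, with 7 to 75 counts in hAPOE4 males and 21 to 218 in hAPOE3 males. Gm15247, chosen after its values were seen and too low to be tested, had 3, 5, 7, 8 and 6 counts in hAPOE3 males and 0 in all 5 hAPOE4 males, and 7, 2, 6, 2 and 5 in hAPOE3 and 0, 1, 0, 0 and 2 in hAPOE4 females. Of 6 listed pseudoautosomal and boundary genes, 3 were tested, and Erdr1 and G530011O06Rik were called lower in both sexes. Over all tested genes 0.621% were called in males and 0.667% in females. The rule fixed the call of Erdr1, and the list was written with earlier results of these data known, so nothing is read from this count.

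**Figure D4:**
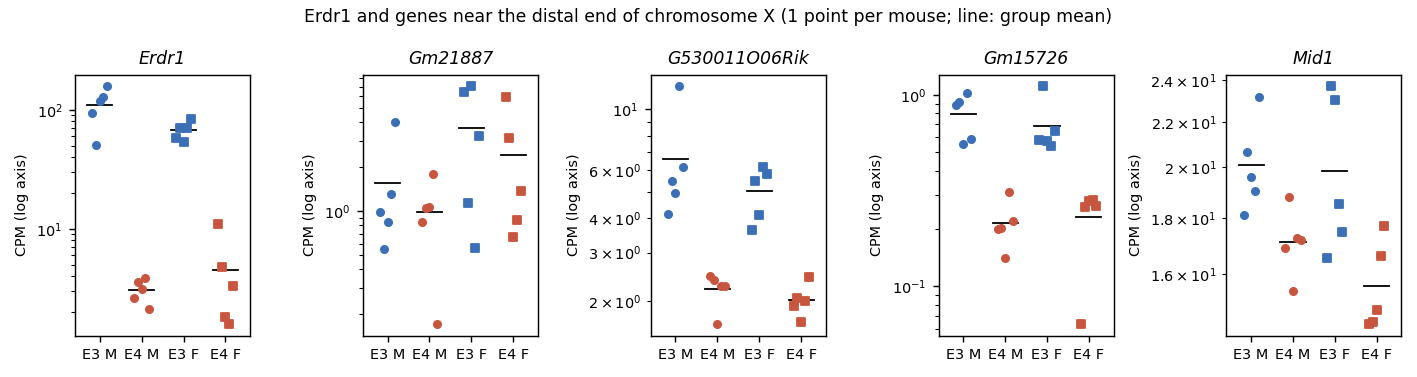
CPM on log axes of Erdr1, Gm21887, G530011O06Rik, Gm15726 and Mid1 in each mouse (circles males, squares females; blue hAPOE3, red hAPOE4; lines are group means of 5 mice). Erdr1, G530011O06Rik and Gm15726 separate the genotypes in both sexes, and Gm21887, between 0.171 and 7.02 CPM, does not.

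The remaining called neighbours were each called in 1 sex. Aspm, a spindle pole gene 77.7 kb from Crb1, was higher in hAPOE4 males by 1.41 ± 0.30 (adjusted p 0.0225) and gave -0.40 ± 0.31 in females (adjusted p 0.726, edgeR). Aspm moved in the same group as the oocyte genes given above, and the part of those genes in it was not tested. Gm3953, a processed pseudogene 317 kb from Cd3d, was lower in hAPOE4 females, at -2.58 ± 0.47 (adjusted p 0.0101) and gave -1.14 ± 0.45 in males (adjusted p 0.447, edgeR). Tcte3 by Ermard is described above. The difference between the sexes was not called for Tcte3 (adjusted p 1.00, edgeR).

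**Figure D5:**
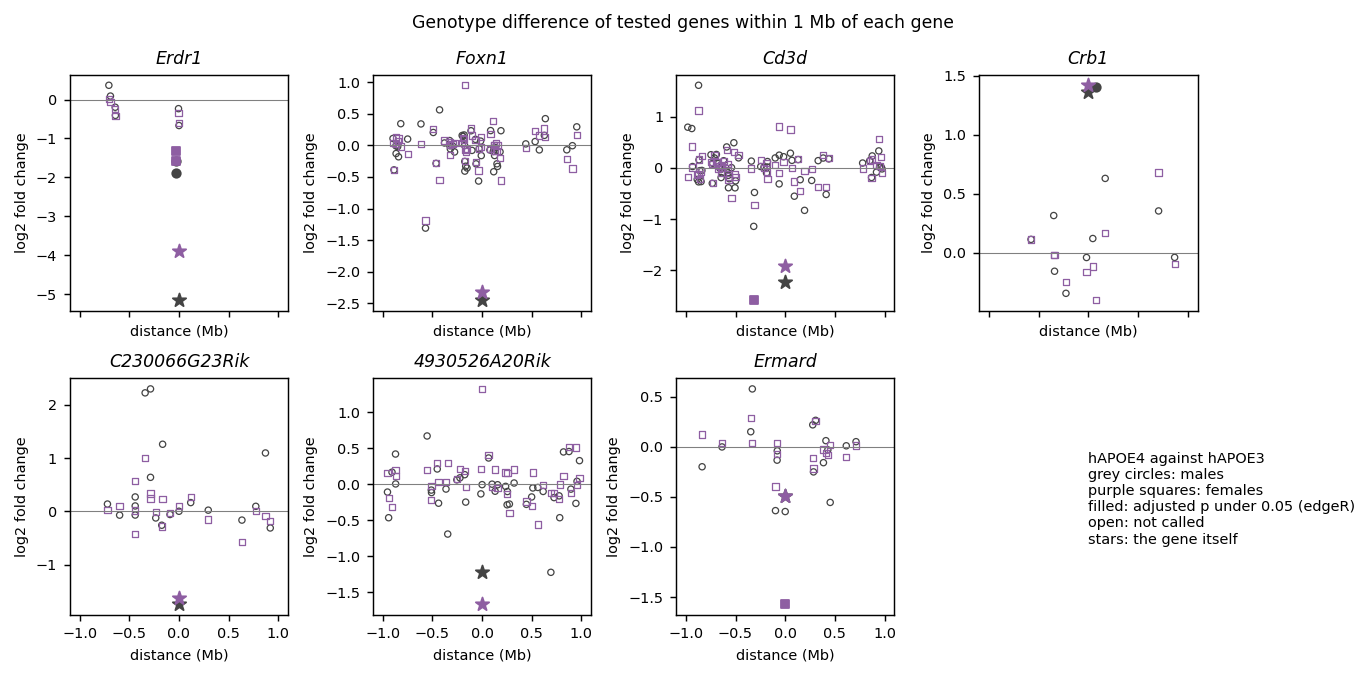
Log2 fold change of hAPOE4 against hAPOE3 for every tested gene within 1 Mb of each of the 7 genes, by distance in Mb from the edge of the gene (circles males, squares females; filled points passed an adjusted p of 0.05 in edgeR; stars are the gene itself). Filled points are rare, 3 in males and 4 in females of 213 genes, and those by Erdr1 lie between -1.88 and -1.32.

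Across the 20 mice the 7 genes followed one another closely, as their choice on genotype fixes: over their 21 pairs the Pearson correlation of log2 CPM ran from -0.87 (Erdr1 and Crb1) to 0.93 (Cd3d and Ermard). After each group's mean was taken away, the correlations ran from -0.53 (Foxn1 and Ermard) to 0.57 (Erdr1 and 4930526A20Rik), with a median of 0.06, so within a group the genes did not rise and fall as one. Within the 10 hAPOE3 mice, Erdr1 went with Cd3d (0.74) and 4930526A20Rik (0.70) and against Foxn1 (-0.62), and Foxn1 went against Cd3d (-0.83). Other pairs were as strong there. Cd3d went with Ermard (0.75) and 4930526A20Rik (0.71), Foxn1 went against Ermard (-0.71), and Crb1 against C230066G23Rik (-0.75). Within the 10 hAPOE4 mice the pairs named first gave -0.07, 0.55, -0.07 and 0.22. The other pairs gave -0.07, -0.28, -0.30 and 0.60 in hAPOE4 mice. The libraries share depth and tissue composition within a mouse, and Foxn1 rests on few counts.

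Likeness over the 20 mice mostly follows genotype, on which the 7 were chosen. Wdfy1, Ighg2c, Pisd-ps2, Gm5815 and Tedc1, named below, were themselves called in both sexes in the same direction. Outside the 7, the tested gene most like Erdr1 over the 20 mice was Wdfy1 (r = 0.95), followed by the immunoglobulin constant gene Ighg2c (0.95). For Foxn1 these were Gm15494 on chromosome 7 (0.87) and the autophagy kinase gene Ulk2 (0.86). For Cd3d they were the pseudogene Pisd-ps2 on chromosome 17 and the kinase gene Sbk3 on chromosome 7 (0.93 each). Crb1 was most like Tedc1, a centriole gene on chromosome 12 (0.92, and 0.81 within groups), and Gm5815 on chromosome 17 (0.89, and -0.01 within groups). C230066G23Rik was most like Pcbp2, an RNA-binding protein gene (0.90), and Sbk3 (0.88), and 4930526A20Rik most like Haus5 of the augmin complex on chromosome 7 (0.95) and Ninj2 on chromosome 6 (0.90). Ermard was most like Pisd-ps2 (0.94) and Wdfy1 (0.93). Pcbp2, Ulk2 and Haus5 also followed their gene within groups (0.74, 0.59 and 0.68), while Wdfy1 did not follow Erdr1 or Ermard there (-0.12 and -0.23). Within groups Ighg2c gave 0.40, Gm15494 0.27 and Ninj2 0.555. Sbk3 gave 0.55 with both Cd3d and C230066G23Rik, and Pisd-ps2 gave 0.45 with Cd3d and 0.44 with Ermard.

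Of 15 marker and pathway lists without one of the 7 genes, 13 had 0 genes called in both genotype comparisons. Among those 13, the blood genes were negative in both sexes, as given above, and the border macrophage genes positive, 6 of 6 in each sex (medians 0.41 and 0.94); their summed level overlapped between the genotypes, at 4.74 to 10.4 and 7.24 to 15.2 CPM in hAPOE3 and hAPOE4 males and 4.75 to 20.5 and 7.001 to 30.1 CPM in hAPOE3 and hAPOE4 females. Choroid plexus genes were positive for 12 of 12 in females (median 0.78). Of the others, the B cell list had Igkc higher in hAPOE4 females (log2 fold change 3.73, adjusted p 0.0436, edgeR), and the oocyte list had Gdf9, Bmp15 and Nlrp5 higher in hAPOE4 males. The rise of Igkc came from hAPOE4 females 1 and 2, at 6.68 and 5.52 CPM, while the other 3 had 0.143 to 0.305 CPM and the hAPOE3 females 0.0970 to 0.399 CPM, and its call was lost without either (adjusted p 0.144 and 0.143, edgeR). Of 5 tested B cell genes, 4 were negative in males (median -0.54, 0 called), Igkc at -1.08 ± 0.86, and 3 were positive in females (median 0.25). Ighg2c, which is not on that list, was called lower in hAPOE4 mice, at -5.76 ± 0.77 in males and -4.00 ± 0.70 in females. With the oocyte score in the model, which was added once the data had been seen, 15 genes were called in males in place of 135. In males Erdr1 (-5.66 ± 0.64) and Cd3d (-2.41 ± 0.42) were then still called. The rule used this contrast on the same libraries, so a call that was kept is no support for the difference. The oocyte genes were high in hAPOE4 males 2 to 5 only, so in males the score and the genotype can hardly be told apart. The log2 fold changes of Crb1 (1.35 ± 0.31), C230066G23Rik (-1.67 ± 0.57), 4930526A20Rik (-1.29 ± 0.32) and Ermard (-0.46 ± 0.10) were close to those without the score, with larger standard errors, and were no longer called (adjusted p 0.167, 0.538, 0.261 and 0.149, edgeR). That of Foxn1 moved to -1.75 ± 0.74 from -2.45 ± 0.51 and was not called either (adjusted p 0.538, edgeR). With only the groups compared in the fit, the male log2 fold changes of Crb1 and 4930526A20Rik were again 1.36 and -1.22, with adjusted p 0.0635 and 0.0705 (edgeR).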

How the data were processed

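Hippocampal RNA-seq of 20 mice was used, 5 in each group of sex and APOE genotype. The authors assigned reads to mouse transcripts (Ensembl release 95, GRCm38) with Salmon 0.91, and the deposited tximport table holds their estimated counts per gene, which are whole numbers. The normalized counts, which the authors deposited beside them, are a signal: DESeq2 scaled the counts with factors that differ between genes and between mice. 0 columns of the tables had no sample.

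The main test was edgeR's quasi-likelihood test (edgeR 4.0.16, R 4.3.3; TMM, filterByExpr, glmQLFit and glmQLFTest, a mean per group, Benjamini-Hochberg over 21724 genes, threshold 0.05). P-values set a difference between groups against the spread between mice. A standard error is the fold change divided by the root of its F. Log2 CPM used a prior count of 2. Positions, overlaps, 31-base words and aligned transcripts come from GENCODE M21 (GRCm38), with RefSeq for symbols it lacks, and 31005 of 33119 symbols were placed. Local alignments scored 1 for a match, -2 for a mismatch, and -5 and -2 for opening and extending a gap.

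The genes named are the 7 members, listed genes and neighbours within 1 Mb that were called, the defining genes of a member's list, the 2 genes most correlated with each member, and the 2 genes just outside the threshold. Tsen34, Gm21887, Gm15247, Lrrc8c, Tcp11, Nnt, Gabra2, Mid1 and Crb2 were singled out after their values were seen. The members and lists were chosen with earlier results of these data known. The scripts were tested on simulated counts. Alternatives were DESeq2 1.42.0, size factors, no filter, the deposited factors, the groups in the fit, covariate scores, merged copies, a wider window and each mouse left out.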

Additional observations from a re-analysis of the deposited data

Results flagged for a closer look

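In the hAPOE3 females, Foxn1 stood at 0.657 CPM in mouse 3, far from the 0.189 to 0.294 CPM of the other 4 mice: the gap to the nearest mouse was 0.776 of the group's whole range. It rests on 23 counts. In the 28 sets of 5 mice examined (7 genes in 4 groups) this was 1 such set, where chance gives about 1 in 20.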

How the results depend on the processing

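The genotype differences of the 7 genes kept their direction under every alternative run, and their calls under each except those named here. The rule used these contrasts on the same libraries, so a call that was kept is no support for the difference. Genes called numbered 322 in males, 339 in females, 25 and 250 between the sexes of hAPOE3 and hAPOE4 mice, and 97 for the interaction with DESeq2; edgeR called 135 in males, 9 and 95 between the sexes and 40 for the interaction. Without a filter they numbered 221 in males and 189 between the hAPOE4 sexes. With only the groups compared in the fit these were 45 and 32. With the oocyte score as a covariate, added after seeing the data, they were 15 and 6, and 1 for the interaction. With the choroid plexus score, also added later, 15 genes were called between the hAPOE3 sexes. With each mouse left out in turn, calls ran from 99 (without hAPOE4 male 2) to 288 (without hAPOE4 male 1) in males, 74 (without hAPOE4 female 2) to 257 (without hAPOE3 female 1) in females, 9 to 15 between the hAPOE3 sexes, 70 (without hAPOE4 male 2) to 275 (without hAPOE4 male 1) between the hAPOE4 sexes and 30 to 118 (without hAPOE4 male 1) for the interaction. Within 2 Mb of the 7 genes, 3 neighbours were called in males and 5 in females, of 350.

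In males, the calls of Crb1 and 4930526A20Rik were lost with only the groups compared in the fit (log2 fold changes 1.36 and -1.22 as before, adjusted p 0.0635 and 0.0705, edgeR), a fit whose filter left out Foxn1 and C230066G23Rik in both sexes. With the oocyte score 5 genes were no longer called in males (adjusted p 0.149 to 0.538, edgeR): the log2 fold changes of Crb1, C230066G23Rik, 4930526A20Rik and Ermard were 1.35, -1.67, -1.29 and -0.46, close to those without it but with larger standard errors, and that of Foxn1 was -1.75 in place of -2.45. In females, C230066G23Rik was lost without a filter, with the deposited factors and with the oocyte score (0.0839, 0.0593 and 0.0567, edgeR). Leaving out 1 mouse took the call of C230066G23Rik 16 times of 20 in females and 8 in males (largest adjusted p 0.188, without hAPOE3 female 4, and 0.142, without hAPOE4 male 4). That of Foxn1 was lost without hAPOE3 female 3 or hAPOE4 female 1, 2, 3 or 5 in females (largest 0.0892) and without hAPOE3 male 3 or hAPOE4 male 2, 4 or 5 in males (largest 0.0742, edgeR). The other 5 genes lost 0 calls with a mouse left out. The cause was not tested.

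Small sex differences, not called in any fit, changed sign. With the oocyte score Foxn1 gave -0.19 between the hAPOE4 sexes and -0.54 for the interaction, and Ermard -0.032 for the interaction. With the choroid plexus score Cd3d gave -0.033 between the hAPOE4 sexes, Crb1 -0.038 and C230066G23Rik -0.0039 between the hAPOE3 sexes, and Ermard -0.0011 for the interaction. With the deposited factors Crb1 gave -0.063 between the hAPOE3 sexes and Ermard 0.032 between the hAPOE4 sexes. With mice left out, sign changes occurred between the hAPOE3 sexes for Foxn1 (-0.10 to 0.51), C230066G23Rik (-0.16 to 0.40), 4930526A20Rik (-0.23 to 0.036) and Ermard (-0.069 to 0.011), between the hAPOE4 sexes for Erdr1 (-0.099, without hAPOE4 female 1, to 0.77), Cd3d (-0.13 to 0.20) and Crb1 (-0.0044 to 0.28), and in the interaction for Foxn1 (-0.080 to 0.54), Crb1 (-0.11 to 0.18), C230066G23Rik (-0.082 to 0.48) and Ermard (-0.030 to 0.038). Depth limits Foxn1 and C230066G23Rik most, at 1 to 34 counts per mouse. No paired analysis was possible because the labels give the mice no shared replicate numbers.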
